A study of Glycine max with 8 samples.

Results

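Chromatin immunoprecipitation and sequencing (ChIP-seq) in soybean embryos located DNA enriched with an antibody to the GLYMA.08G357600 protein. The long enriched stretches are described here. A shared region joined peaks of the 2 biological replicates that overlapped by at least 1 bp, from the lowest start to the highest end. Members were chosen by length alone: of 15872 shared regions, 383 (2.41%) were longer than 1000 bp and are called broad regions. They covered 469562 bp, 5.93% of all shared bases. Broad describes length only, since both lists hold narrow peaks.

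The embryos were of the cultivar Williams 82 at mid-maturation, taken from seeds of 200 to 250 mg. ChIP used an antibody raised against a peptide of that protein, and input was sonicated chromatin with no antibody. Each kind had 4 libraries, from 2 biological replicates with 2 lanes each, and no genetic or treated group was included. The values below come from 1 peak list per ChIP replicate, with input entering through the local background of each peak.

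A DNA-binding protein usually contacts a short stretch of DNA, and in ChIP-seq each bound place appears as a peak about as wide as the sheared fragments. Bound places that lie close together merge into 1 longer stretch of signal, and a very tall peak can pass the calling limit over more bases. Mid-maturation is the stage at which legume embryos lay down storage protein and oil, largely under the control of DNA-binding proteins. No source used here names the genome build, so neither genes nor DNA sequences at the regions are reported.

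Fold enrichment is the number of overlapping fragments at the summit (the pileup) plus 1, over the local background plus 1. Replicate 1 had 21196 peaks with a median width of 372 bp, and replicate 2 had 18385 with 363 bp. From the genome-wide backgrounds, 3.91 and 2.74 fragments, each divided by the narrowest peak width of its list (223 and 221 bp, taken as the fragment length), replicate 1 had an estimated 1.41 times the ChIP depth of replicate 2. Length, fold, pileup and background of a region all come from the peaks that chose it, so these values are descriptions and no test was made on them.

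The 10 longest regions were more often split than broad regions as a whole. A region that joins several peaks is longer by construction, so nothing further is read from this. In 8 of these 10, a list split the region into several peaks while the other list had a single long peak. Of all 383 broad regions, 289 (75.5%) had 1 peak in each list. The longest lay on chromosome 14 from 1170614 to 1173759 and spanned 3146 bp. Each replicate had 1 peak there, with folds of 9.61 in replicate 1 and 9.62 in replicate 2. Its summits lay at 1660 bp from the region start in replicate 1 and at 795 bp in replicate 2, and the replicates put the highest point at different places of the same stretch.

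On chromosome 17 from 4090183 to 4092753, a 2571 bp region had 1 replicate 1 peak with a fold of 22.1 at 2314 bp from its start. Replicate 2 split it into a peak with a fold of 16.4 at 1126 bp and one of 29.5 at 2274 bp. The stronger replicate 2 peak thus stood 40 bp from the replicate 1 summit, and the weaker lay well inside the long replicate 1 peak. On chromosome 1 from 3715105 to 3717531, replicate 1 had a fold of 14.9 at 691 bp, and replicate 2 had folds of 16.3 at 779 bp and 12.2 at 1748 bp. There, too, the replicate 1 summit was near the stronger of the replicate 2 summits.

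**Figure D1:**
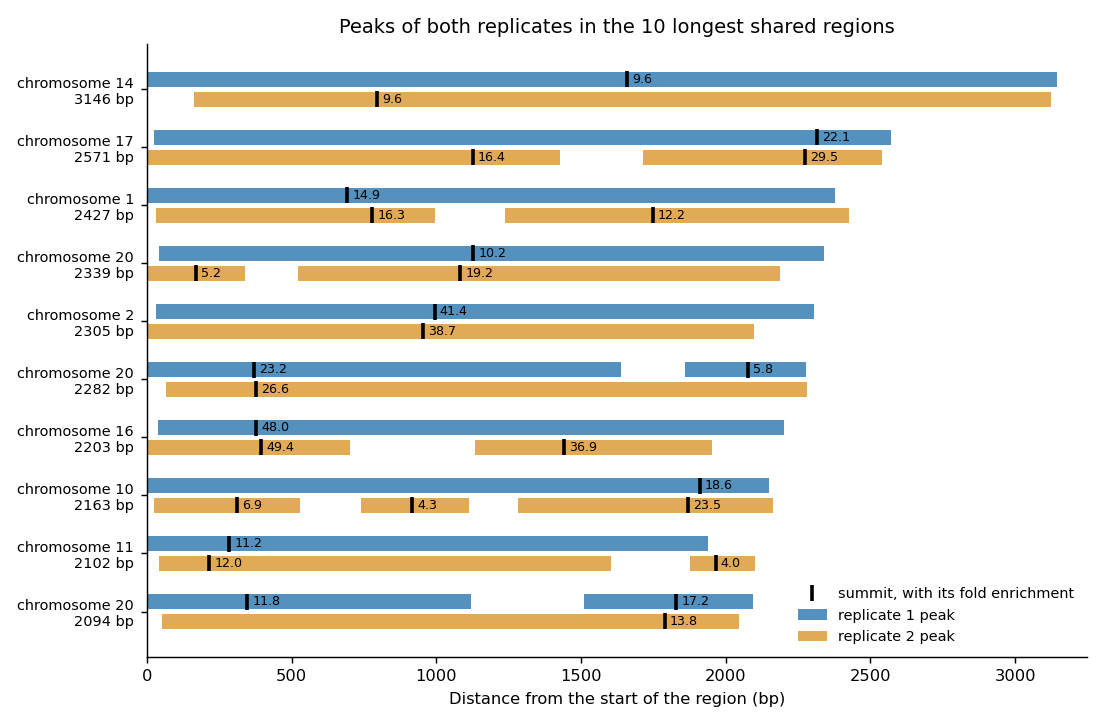
Peaks of replicate 1 (blue) and replicate 2 (orange) in the 10 longest shared regions, by distance from the region start in bp. Black marks are summits and the numbers beside them fold enrichments; on chromosome 17 a single replicate 1 peak (22.1) spans 2 replicate 2 peaks (16.4 and 29.5).

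The split was not always in replicate 2. On chromosome 20 from 38286987 to 38289268, replicate 1 had a peak with a fold of 23.2 and one of 5.84, and replicate 2 a single peak with a fold of 26.6. A second chromosome 20 region, from 28467005 to 28469098, held replicate 1 peaks with folds of 11.8 and 17.2 and a single replicate 2 peak with a fold of 13.8. The third, from 40529622 to 40531960, had 1 replicate 1 peak (fold 10.2) and replicate 2 peaks with folds of 5.19 and 19.2. Chromosome 20 therefore held 3 of the 10 longest, although it held only 12 broad regions in all.

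Strong enrichment on both flanks was rarer. On chromosome 16 from 36837235 to 36839437, replicate 2 had folds of 49.4 at 394 bp and 36.9 at 1441 bp, under a single replicate 1 peak with a fold of 48.0. The chromosome 10 region from 47753591 to 47755753 was split into 3 replicate 2 peaks, with folds of 6.91, 4.31 and 23.5. That on chromosome 11 from 5112744 to 5114845 joined a replicate 2 peak with a fold of 12.0 to a small one with a fold of 4.05. The remaining region of the set, on chromosome 2 from 10715101 to 10717405, was a single peak in both lists, with folds of 41.4 and 38.7.

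Most broad regions were only slightly longer than the limit. The median length was 1143 bp, 242 of the 383 (63.2%) were at most 1200 bp, 42 exceeded 1500 bp and 10 exceeded 2000 bp. The 3 just inside the limit were 1001, 1001 and 1002 bp long. They had folds of 49.0 and 52.7 on chromosome 8 from 12443727, of 18.6 and 35.3 on chromosome 9 from 43177257, and of 30.8 and 30.6 on chromosome 2 from 40701023 (replicates 1 and 2). The 3 just outside were 1000, 1000 and 997 bp long. Their folds were 18.6 and 22.0 on chromosome 1 from 48957123, 16.9 and 31.5 on chromosome 12 from 408601, and 11.3 and 13.2 on chromosome 2 from 14546707. The limit cuts through a continuous range of lengths and marks no gap.

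Replicate 1 alone supplied much of the length. A peak longer than 1000 bp was present in both lists at 122 broad regions, in replicate 1 only at 176, in replicate 2 only at 49 and in neither at 36. These 383 regions took in all 298 replicate 1 peaks and all 171 replicate 2 peaks of that length. The stretch covered by peaks of both lists had a median of 930 bp, or 82.7% of the region, and exceeded 1000 bp in 137 regions. Replicate 1 was the deeper ChIP, and what part depth had in its longer peaks was not tested.

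Several peaks in a list were far more frequent among broad regions than among the rest. At least 1 list had more than 1 peak at 94 of 383 broad regions (24.5%, Wilson 95% interval 20.5% to 29.1%), where 1.18% of all shared regions had this. Among the 15489 shorter regions there were also 94 (0.607%). Of the 94 broad ones, 64 were split in replicate 2 only, 26 in replicate 1 only and 4 in both. A region that joins several peaks is longer by construction, so nothing further is read from this count. Neither list had a peak over 1000 bp at 36 broad regions, and 15 of these 36 were split. Every other split broad region held a peak over 1000 bp in at least 1 list.

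Within a split list, peaks were ordered by fold, so a stronger and a weaker one follow by construction. No such values are given for split regions of 1000 bp or less, so those below describe broad regions only. The 94 regions gave 98 split lists, 30 of replicate 1 and 68 of replicate 2. The stronger peak had a median fold of 15.6 and the weaker a median of 5.19. The ratio was at least 2 in 59 of the 98, and the weaker peak had a fold under 10 in 84. Summits of these peaks lay a median of 663 bp apart (quartiles 563 and 784 bp). The most unequal pair, on chromosome 2 from 6404638 to 6405936 and chosen after its values were seen, had replicate 2 folds of 48.3 and 3.74. Nearly equal peaks were found on scaffold 28 from 288965 to 290689, where replicate 2 folds were 62.2 and 57.6, with a single replicate 1 peak of 57.1.

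On scaffold 28 the replicates also differed in which summit led. The replicate 1 summit fell at 383 bp from the region start, on the same base as the slightly weaker replicate 2 peak. The stronger replicate 2 summit stood at 1133 bp, and so the leading summits of the replicates were 750 bp apart. On chromosome 13 from 45448562 to 45450174 the leading summits were 875 bp apart, the farthest of any broad region. Replicate 1 led with a fold of 9.24 at 1331 bp and replicate 2 with 10.5 at 456 bp, while a second replicate 2 peak of 8.44 lay at 1286 bp. Both replicates thus had a summit near the region's end, although replicate 2 had its higher fold elsewhere. By pileup, replicate 2 was higher near the end, with 49 fragments at 1286 bp against 42 at 456 bp. Its local background was 4.93 fragments at 1286 bp and 3.08 at 456 bp. The gap of 875 bp therefore holds for summits that lead by fold.

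Displaced summits of this kind were a small part of the set. Leading summits were more than 100 bp apart at 34 broad regions (8.88%), against 7.33% of all shared regions, a share near the background. Gaps over 300 bp, however, were found at 23 broad regions (6.01%) and at 63 shorter ones (0.407%); a longer region leaves more room for such a gap. Among the 34 the median gap was 393 bp, and the median folds were 9.27 in replicate 1 and 9.20 in replicate 2. Of those 34 regions, 22 had a single peak in each list. The median gap over all 383 was 19 bp, against 29 bp for shorter regions, so most broad regions had a summit that both replicates put at nearly the same base. In the 5% of shared regions with the highest summed pileup, median gaps were 11 bp (broad) and 14 bp (shorter). Close summits were therefore not particular to broad regions.

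The summit sat off centre in broad regions. Its distance to the nearer edge, as a fraction of the region length (0.5 is the middle), had a median of 0.340 in replicate 1 and 0.335 in replicate 2. For regions of 1000 bp or less the medians were 0.433 and 0.431. It lay within 25% of the length from an edge in 22.2% of broad regions in replicate 1 and 19.3% in replicate 2, against 2.96% and 3.64% of the shorter ones. At 57 broad regions (14.9%) both replicates put it there at the same end, as they did at 75 shorter ones (0.484%).

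**Figure D2:**
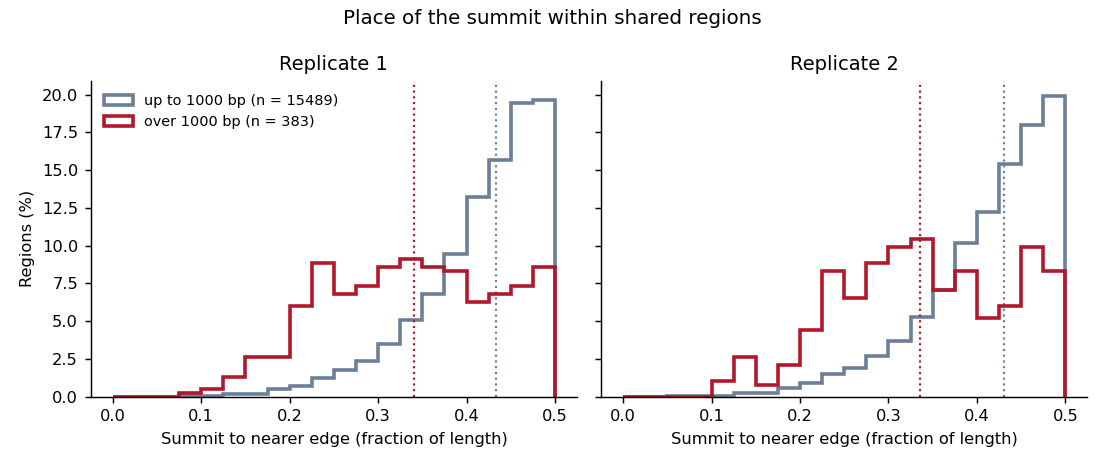
Distance from the summit to the nearer edge as a fraction of region length (0.5 is the middle), as the percentage of broad (red, 383) and shorter (blue-grey, 15489) regions, for each replicate. Dotted lines are medians: 0.340 and 0.335 for broad regions, 0.433 and 0.431 for shorter ones.

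In a split list the summit is that of 1 of several peaks side by side, which by construction tends to lie off centre. Regions with a single peak in each list were less off centre than split ones, and nothing further is read from this. Their median fraction was 0.358 in replicate 1 and 0.366 in replicate 2 (289 regions), against 0.278 and 0.280 where a list was split (94 regions). Split regions of 1000 bp or less had medians of 0.261 and 0.273 (94 regions), so an off-centre summit was not particular to broad regions. In bp, the summit of a broad region lay a median of 399 bp from the nearer edge in both replicates, and 770 bp (replicate 1) and 761 bp (replicate 2) from the farther one. The farther arm was at least 2 times the nearer one in both replicates at 169 broad regions (44.1%), and at 771 shorter regions (4.98%). The summit was left of the middle, by increasing coordinate, in 51.2% of broad regions in replicate 1 and 52.2% in replicate 2, close to an even split.

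The regions with summits nearest an edge were the chromosome 17 and chromosome 11 regions described above and one on chromosome 18 from 43487858 to 43489538. On chromosome 18 the summits lay at 180 bp and 191 bp of a 1681 bp region that was a single peak in each list. Folds there were 9.99 in replicate 1 and 14.7 in replicate 2. Both replicates therefore had a short side and a long one, of 1500 bp in replicate 1 and 1489 bp in replicate 2.

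Broad regions were, as a set, strongly enriched. Replicate 1 folds ran from 1.52 to 76.2 with a median of 22.0, and replicate 2 folds from 1.66 to 87.1 with a median of 23.8. Shorter regions had medians of 6.86 and 7.21. Both replicates reached a fold of 10 at 311 broad regions (81.2%), where 24.4% of all shared regions did, and a fold of 20 at 200 (52.2%), where 7.14% did. Strength and length come from the same peaks, so nothing further is read from these shares.

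The 5 broad regions with the highest mean rank of fold lay on chromosomes 3, 11, 10 and 20. The first, on chromosome 3 from 37825187 to 37826325, held 395 overlapping fragments at its summit in replicate 1 and 372 in replicate 2. Pileups were 347 and 309 on chromosome 11 from 34413697, 340 and 312 on chromosome 10 from 39002970, 340 and 320 on chromosome 10 from 40797448, and 336 and 277 on chromosome 20 from 35315097. Each was a single peak in both lists, and leading summits of the replicates were at most 15 bp apart. These strongest members were only 1025 to 1503 bp long, so strength and length did not rank them alike.

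Across all 15872 shared regions the Spearman correlation of length with fold was 0.64 in replicate 1 and 0.61 in replicate 2. Across the 383 broad regions it was -0.03 and -0.01, and across the shorter ones 0.63 and 0.59. The broad regions were chosen by length and span a narrow range of it for the most part, so their values cannot be set against the others. All describe regions of the same 2 lists and have no p.

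**Figure D3:**
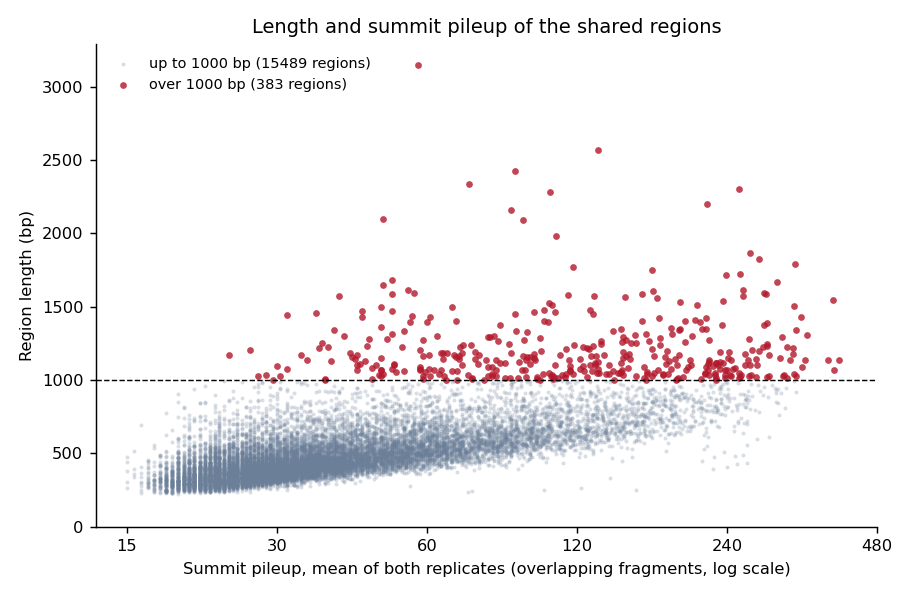
Region length in bp against the summit pileup (mean of both replicates, log scale), with broad regions in red and shorter ones in blue-grey; the dashed line is 1000 bp. Length goes up with pileup below the line, and the broad regions have mean pileups from 24 to 403.5 fragments.

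Pileups of broad regions were high. Median pileups were 134 fragments in replicate 1 and 114 in replicate 2, against 39 and 30 for shorter regions. The lowest were 31 and 15 and the highest 410 and 402. The median ratio of replicate 1 to replicate 2 pileup was 1.17 in broad regions and 1.25 in shorter ones. Pileups of the replicates had a Spearman correlation of 0.983 across the 383 broad regions and folds one of 0.923, both without a p, since regions share their lists.

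The chromosome 10 region from 3258740 to 3260528, chosen after its values were seen, differed more in fold than in pileup. Its pileups were 339 and 319 fragments in replicates 1 and 2, and its folds 42.2 and 82.0. The local background was 7.06 fragments in replicate 1 and 2.90 in replicate 2, and fold is by its formula a ratio to that background.

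The local background of the peaks was slightly higher in broad regions than in shorter ones. Median backgrounds were 4.70 and 3.63 fragments (replicates 1 and 2), against 4.59 and 3.17 for shorter regions. The lowest, genome-wide level applied at 16.4% and 12.3% of broad regions and at 26.7% and 27.3% of shorter ones. Background above that level means that input reads around the summit exceeded the genome average. Since the caller takes the highest of several windows, whether more input lay under the regions themselves could not be told from the lists.

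A background above 5 times the genome-wide level in both lists was found at 3 broad regions (0.783%, Wilson 95% interval 0.267% to 2.28%), where 0.208% of all shared regions had one. Among single-list peaks over 1000 bp the share was 1.75% without replicate 1 and 0.336% without replicate 2. All 3 lay close together on chromosome 12, with 1615 and 3077 bp between them. The region from 39184619 to 39185755 had folds of 1.52 and 1.74 over backgrounds of 157 and 167 fragments. It was split in replicate 1, where its other peak had a fold of 1.43 from 345 fragments over 241. Next along, from 39187371 to 39188494, folds were 1.80 and 1.93 over 139 and 98.5 fragments. The third, from 39191572 to 39192714, had folds of 1.59 and 1.66 over 189 and 148. At the peak with the highest fold in each list, their pileups of 191 to 301 fragments would rank them among strong regions. Input was high there too, so these 3 regions had the 3 lowest fold ranks of the set. Next in replicate 1 background came regions on chromosome 12 from 6705196 (10.6 and 5.34 fragments) and chromosome 8 from 525315 (10.0 and 4.51). Their folds were 15.5 and 25.6 and 32.6 and 58.8. In replicate 2 other broad regions had higher backgrounds than these.

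Weak broad regions were few. Folds of both replicates were under 10 at 41 broad regions (10.7%), the 3 on chromosome 12 among them, against 66.8% of the shorter ones. The lowest ranks after chromosome 12 were on chromosome 9 from 43179226 to 43180398 (folds of 6.23 and 3.13) and on chromosome 14 from 43498911 to 43500355 (6.27 and 3.49). The chromosome 9 region held the lowest summed pileup of all, from 33 and 15 fragments, and was 1173 bp long in replicate 1 but 509 bp in replicate 2. A stronger broad region, from 43177257 with folds of 18.6 and 35.3, lay 968 bp away. Cut into 5 classes of about equal size by summed pileup, from lowest to highest, the shared regions held 1, 6, 13, 59 and 304 broad ones. A list was split at 0, 3, 5, 26 and 60 of these.

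Many of the tallest shared regions were not broad. In the 5% of shared regions with the highest summed pileup, 176 of 798 (22.1%) were broad. These 176 had median replicate 1 and 2 folds of 38.1 and 42.2, against 31.7 and 35.1 for the 622 shorter ones, and median pileups of 232 and 203 against 186 and 156. Their summits lay a median of 440 bp from the nearer edge in replicate 1 and 713 bp from the farther, against 337 and 420 bp. Both arms add up to the length, which chose the regions, so longer arms are no result. A list was split at 23 of the 176 (13.1%) and at 1 of the 622 (0.161%). The replicate 1 summit lay within 25% of the length from an edge at 16 of 176 and at 3 of 622.

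**Figure D4:**
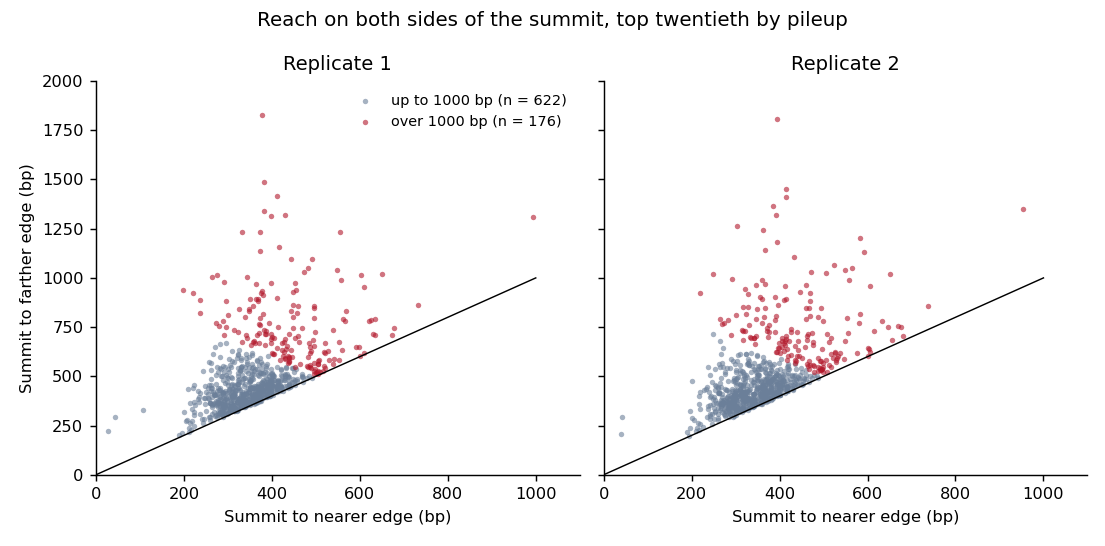
Distance in bp from the summit to the nearer (x) and farther (y) region edge, for the 5% of shared regions with the highest summed pileup; 176 broad regions in red, 622 shorter in blue-grey, each replicate in its panel. The line marks equal arms, below which no region can lie; the medians of broad regions in replicate 1 are 440 and 713 bp.

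Position on the chromosome was not used to choose the regions. Broad regions were found on all 20 chromosomes, 10 (chromosome 16) to 28 (chromosomes 6 and 13) on each, and 3 lay on scaffolds. Their share of the shared regions of a chromosome was 2.38% ± 0.553 (SD, n = 20 chromosomes). The longest member of each chromosome ranged from 1346 bp (chromosome 3) to 3146 bp (chromosome 14). The share was highest on chromosomes 9 (3.29%), 12 (3.20%) and 10 (3.12%), and lowest on chromosomes 2 (1.52%) and 3 (1.54%). That of chromosome 12 counts the 3 regions of high background described above. In soybean, genes are concentrated toward chromosome ends while the middle is rich in repeats.

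More of the broad regions than of the others lay toward chromosome ends. The outer 20% at each end held 288 of 380 broad regions on chromosomes (75.8%, Wilson 95% interval 71.2% to 79.8%) and 10490 of 15412 shorter ones (68.1%). In the outer 10% the shares were 48.9% and 38.9%, and in the middle 20% they were 3.16% and 6.02%. By chromosome the outer 20% held 76.3% ± 15.2 of broad and 69.3% ± 10.9 of shorter regions (SD, n = 20 chromosomes). The broad share was the higher on 14 chromosomes and the lower on 6. It was 100% on chromosome 4 (15 regions), and lowest on chromosome 13, where it was 39.3% against 33.3% of shorter regions. Chromosome 15 went the other way, with 50% against 71.0%. With 10 to 28 broad regions on each chromosome these shares are coarse, and the intervals cover counting error only. Regions on a chromosome are not replicates, and no test of the difference was made.

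**Figure D5:**
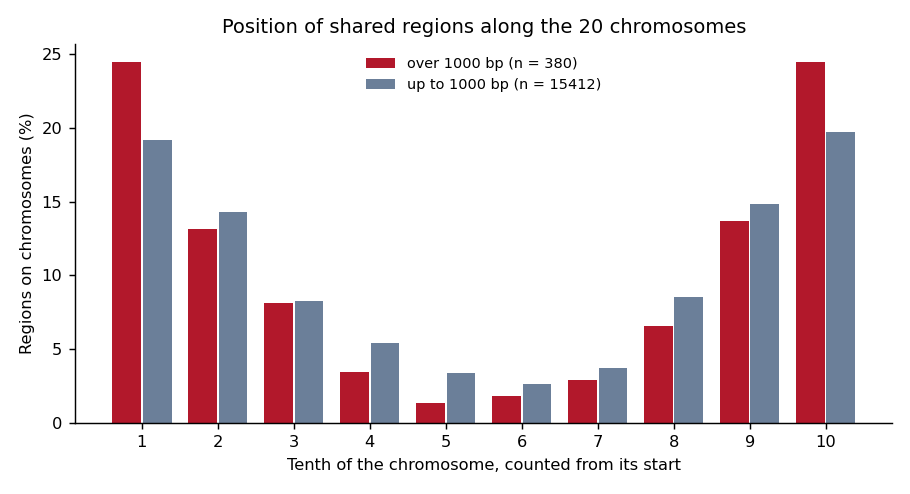
Percentage of broad (red, 380) and shorter (blue-grey, 15412) regions in each 10% of the chromosome, all 20 chromosomes together. Both are highest at the ends; the first and last 10% each held 24.5% of broad regions, against 19.2% and 19.7% of shorter ones.

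Outer shares were also compared among regions of like strength. With the lower of both folds from 10 to 20 it was 77.5% for 111 broad regions and 67.9% for 2605 shorter ones. From 20 to 40 it was 77.6% (134 broad) against 66.1% (826 shorter), and at 40 or more 73.0% (63) against 66.3% (104). For folds of 5 to 10 the shares were 71.9% (64) and 68.1% (7014), and under 5 they were 75% (8) and 68.5% (4863). By the 5 pileup classes the broad share was the lower in the middle class, with 53.8% of 13 against 67.7% of 3096. In the class above it was 72.9% of 59 against 67.8% of 3086, and in the highest 77.1% of 301 against 67.1% of 2835. The lowest classes held only 1 and 6 broad regions. Split and unsplit broad regions differed little, with 77.2% of 92 and 75.3% of 288. The highest peak end stood in for each chromosome's length, so the true ends may lie further out.

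Broad regions often had a near neighbour. Another shared region lay within 2 kb, edge to edge, of 137 broad regions (35.8%), where 21.4% of all shared regions had one; among shorter regions the share was 21.1%. The median distance to the nearest shared region was 4668 bp for broad and 9045.5 bp for shorter regions. A peak found in 1 list only lay within 2 kb of 83 broad regions (21.7%) and of 1584 shorter ones (10.2%). In the top 5% by pileup the share with a shared neighbour within 2 kb was 37.5% of broad and 24.9% of shorter regions. Regions also lie more densely near chromosome ends, and what part that had in these shares was not tested.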

How the data were processed

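The submitters' processing notes name Bowtie 0.12.7 and MACS2. No source used here gives the MACS2 version, its settings or the genome build. The authors deposited 1 narrowPeak list per ChIP replicate, in which both lanes appear joined. The deposited fold enrichment (a ratio), −log10 p, −log10 q and score are the authors' own values for each peak, called against input; the score was not analysed. Starts are printed counting from 1.

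Pileup and background were recovered by solving fold and Poisson p together, and returned the deposited −log10 p within 0.000151 for every peak. Each list's lowest background stood for the genome-wide level. A region took its values in a list from the peak with the highest fold there. Total read numbers are unknown here, so depth is given only as a ratio between replicates.

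Members, lists and named regions were chosen with earlier results of these data known. Named regions were the 10 longest, the 5 highest and 5 lowest by mean fold rank, the 5 with the highest replicate 1 background, the 5 longest with several peaks, the 3 with the farthest summits, the 3 with summits nearest an edge, and the 3 on each side of the limit, with the longest of each chromosome given as a range; others are stated as chosen later. The part of that rule on genes could not be applied. Regions are not replicates, the 2 lists allow no test between groups, and none was made. Wilson 95% intervals and counts cover counting error only; PCR reads are not independent molecules. The steps were checked on simulated lists with known answers. Python 3.11.15, pandas 2.3.3 and SciPy 1.17.1 were used.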

Additional observations from a re-analysis of the deposited data

How the results depend on the processing

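Of 55 alternatives, 5 of them (single peaks only) chosen after seeing the data, 36 stayed within a limit set for each kind of value. For a share the limit was its Wilson interval, and for a count a change of 1.5 times. For the median summit place, fold and pileup it was the SD between the medians of replicates 1 and 2. The replicates differ in ChIP depth, so this SD is an offset between lists and no error of the median. A median that stayed within it is therefore not shown to be robust. The 383 regions became 1101 with a limit of 800 bp, 141 with 1200 bp and 137 when the stretch covered by both lists had to pass 1000 bp, which follows from the limits; without a replicate, single peaks over 1000 bp numbered 171 to 298. The split share of 24.5% became 12.9% with −log10 q of at least 10, where weak peaks are absent, and 34.8% over 1200 bp. The median summit place, averaged over the lists, moved from 0.337 to 0.303 over 1200 bp, to 0.360 for single peaks, and ranged from 0.305 to 0.345 without a replicate. The median fold, averaged over the lists, moved from 23.0 to 26.2 with summits at most 100 bp apart, 20.3 over 800 bp, 24.9 for the stretch in both lists and 26.9 for single peaks, and ranged from 23.5 to 26.1 without a replicate; the cause was not tested. The median pileup moved from 126 to 145 for single peaks. A high background was found at 0% over 1200 bp, and at 0.336% to 1.75% without a replicate. The outer share was 79.9% over 1200 bp, and 48.9% in the outer 10%, which is a smaller part of the chromosome. No paired analysis was possible because input has no list of its own, and a single group leaves nothing to pair. Not run were the split share without a replicate, where no region joins peaks, and the high-background share without regions of high background.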

Other observations

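Broad regions sometimes stood near each other, a set of values chosen after the lists were seen. At most 5 kb separated 13 pairs of broad regions, and no such count is given for shorter regions. Any other shared region lay within 5 kb of 52.7% of broad and 37.0% of shorter regions, so nothing further is read from the count of pairs. Among the pairs were the chromosome 12 regions of high background described above, with 1615 and 3077 bp between them. The closest lay on chromosome 13, from 32606702 to 32607839 and from 32607938 to 32609051, 98 bp apart. Replicate 1 folds there were 4.82 and 12.2, and replicate 2 folds 7.28 and 20.1. On chromosome 2, regions from 2798912 and from 2800241 were 201 bp apart, with folds of 6.02 and 28.9 in replicate 1 and 7.25 and 24.5 in replicate 2. In both pairs a weaker broad region stood beside a stronger one in each replicate. A pair of strong ones lay on chromosome 18, from 2729497 to 2730615 (folds of 40.8 and 64.4) and from 2732704 to 2734572 (56.7 and 65.7), 2088 bp apart.

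The 3 broad regions outside the chromosomes, also chosen after the lists were seen, lay on scaffolds 21, 23 and 28. Folds were 41.3 and 47.9 on scaffold 21 from 3343357 to 3344505, and 30.7 and 28.7 on scaffold 23 from 691195 to 692762, in replicates 1 and 2. With the scaffold 28 region, all 3 were above the median fold of the broad regions in both replicates.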
